A study of Mus musculus with 9 samples.

Results

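The interferon regulatory factor (IRF) genes Irf1, Irf2, Irf3, Irf4, Irf5 and Irf8 were examined in mouse bone marrow-derived dendritic cells (BMDC) exposed to lysophosphatidic acid (LPA). They are the IRF genes outside ISGF3, the Irf9-containing complex of type I interferon signalling, and were taken by symbol, 6 rows of the 38887 in the table. Each of the 6 symbols had 1 row, and all 6 rows passed the filter on low counts. BMDC are cultured cells, derived from bone marrow, that take up and present antigen. RNA-seq was carried out on 3 untreated libraries, 3 libraries after 2 h of LPA and 3 after 6 h. LPA dose, vehicle, mouse strain, age, culture cytokines and the time at which untreated cells were taken are not in the labels. Whether a replicate is its own mouse or culture is not given either, so p-values here reflect only library-to-library spread, possibly technical. The series title places the work in how tumor-derived LPA affects type I interferon responses.

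IRF proteins share a DNA-binding domain that reads GAAA repeats in interferon-stimulated promoters. Irf1 is an activator induced by interferon gamma, and Irf2 binds the same sites and often opposes it. Irf3 is present before stimulation and turns on interferon beta once Tbk1 or Ikbke phosphorylates it, while Irf5 works below Toll-like receptors and Myd88 on inflammatory cytokine genes. Irf4 and Irf8 bind DNA weakly alone, need partners such as the Ets factor Spi1 or Batf-Jun pairs, and are known for directing dendritic cell subsets.

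The letters upstream of the start sites are shown for Irf1, Irf2 and Irf8, since these were the members whose 250 bases before a RefSeq start held letters of an interferon response element. Capitals mark TTCNNNGAA, the letters of a gamma-activated site, through which interferon gamma acts, and the core of an interferon-stimulated response element, which is GAAA, any 2 bases and GAAA. The sequences are from RefSeq, build GRCm38.p6, all on the plus strand, at chr11:53769764-53770013 for Irf1, chr8:46739495-46739744 for Irf2 and chr8:120736108-120736357 for Irf8.
Irf1: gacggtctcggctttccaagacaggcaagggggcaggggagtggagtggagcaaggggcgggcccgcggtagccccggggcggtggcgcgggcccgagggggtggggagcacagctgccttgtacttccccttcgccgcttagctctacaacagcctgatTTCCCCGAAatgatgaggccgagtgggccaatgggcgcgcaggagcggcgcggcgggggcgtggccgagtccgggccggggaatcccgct
Irf2: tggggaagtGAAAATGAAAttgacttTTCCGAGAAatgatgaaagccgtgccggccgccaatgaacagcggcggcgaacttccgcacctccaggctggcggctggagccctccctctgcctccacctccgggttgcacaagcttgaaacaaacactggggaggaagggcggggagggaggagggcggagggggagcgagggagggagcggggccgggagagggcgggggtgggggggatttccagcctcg
Irf8: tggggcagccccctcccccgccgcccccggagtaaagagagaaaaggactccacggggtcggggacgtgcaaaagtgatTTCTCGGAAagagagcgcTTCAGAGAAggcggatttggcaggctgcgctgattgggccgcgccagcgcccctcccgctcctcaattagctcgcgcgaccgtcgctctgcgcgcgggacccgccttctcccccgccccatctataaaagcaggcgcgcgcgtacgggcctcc
The match in Irf1, TTCCCCGAA, began 90 bases before the start. Irf2 held the response element core GAAAATGAAA 241 bases and TTCCGAGAA 224 bases before its start, and Irf8 held TTCTCGGAA at 171 and TTCAGAGAA at 153 bases.

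All 6 genes, Irf7 and Irf9 had an entry, and Irf1, Irf8 and Irf9 each had a pair of windows, of which only the first of Irf1 and Irf8 held such letters. Searching both strands, 7.02% of the 32851 windows in the table held TTCNNNGAA and 2.98% held the response element core. The NF-kappaB pattern, GGG, any 5 bases and CC, with 45.8% of windows holding it, was found in 1 window of each member, with 4 matches in Irf1 and 5 in Irf8, some overlapping. The cAMP response element TGACGTCA (1.55% of windows) and its shorter form TGACG (17.8%), which TGACGTCA contains, were found in no window of the 6 genes. A match of letters is a description and not a site, and the windows were GC-rich, from 54% to 74.4% G or C against a median of 52.4%.

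Libraries held 29628817 to 84596899 estimated counts, and 14363 rows were tested. Level is given as CPM, the usual depth-normalised count, here on TMM-scaled library totals, with SD over 3 libraries, and changes as log2 fold changes with their standard error (SE). Genes were called at a Benjamini-Hochberg adjusted p under 0.05 from edgeR's quasi-likelihood test, adjusted over all rows. Replicate 2 at 2 h stood apart from its group, at 9.74 on the first principal component, where the other 2 h libraries were at -4.67 and -12.4 and the 6 h libraries between 35.7 and 40.6. All 8 dendritic cell markers were detected, with summed levels of 7668 to 8907 CPM untreated, 8194 to 9109 CPM at 2 h and 6943 to 7627 CPM at 6 h. Of the 8 dendritic markers 1 fell and 2 rose at 2 h, and 4 fell at 6 h, or 2 without untreated replicate 2 or 6 h replicate 1 or 3. All 8 macrophage markers were also detected, with sums of 3123 to 3180 CPM untreated, 3338 to 3504 CPM at 2 h and 3254 to 3441 CPM at 6 h. Most of that sum was Csf1r, and the single markers moved more than the sum. At 6 h 6 of the 8 fell and 2 rose (median log2 fold change -0.38), from -1.24 for Fcgr1 to 0.73 for Mertk, with Csf1r at 0.22. At 2 h 1 fell and 1 rose, with none rising without untreated replicate 1 and 2 rising without 2 h replicate 2. B and plasma cell markers, whose cells use Irf4 and Irf8, summed to at most 0.530 CPM in any library, and T and NK cell markers to at most 0.771 CPM, with Cd3g and Ncr1 at 0. Mast and basophil markers stayed at or under 0.127 CPM, with Fcer1a at 0, and neutrophil markers at or under 7.29 CPM. Stromal and endothelial markers reached 13.2 CPM in untreated replicate 2, against 2.95 CPM in the lowest untreated library, and 5.13 CPM at 6 h. In untreated replicate 2 most of it was Cdh5 (7.86 CPM) and Pecam1 (4.93 CPM). Plasmacytoid dendritic cell markers, whose cells are high in Irf8, summed to 299.9 to 335 CPM untreated, 277 to 349 CPM at 2 h and 183 to 209 CPM at 6 h, mostly from Bst2, which is also interferon-inducible. Of the others on that list Tcf4 was at 30.6 to 44.4 CPM, Ccr9 at most 1.85 CPM, Cox6a2 at most 1.28 CPM, Klk1 at most 0.242 CPM and Siglech at most 0.0454 CPM. Of the 5 tested, 1 rose at 2 h and 2 fell at 6 h. At 2 h no dendritic marker rose without untreated replicate 3 or 2 h replicate 1, and none fell without untreated replicate 2 or 2 h replicate 3. The part of any of these markers in the results was not tested, and in bulk libraries fewer cells of a type and less RNA per cell cannot be told apart. Over all genes tested 38.5% were called either way against untreated at 2 h and 52% at 6 h.

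All 6 genes stayed expressed at every time, and the genes called lower in LPA cells were at 0.645 to 0.833 of their untreated level. At 2 h Irf1, Irf2, Irf3 and Irf8 were lower, and at 6 h Irf1 and Irf2 were still lower, Irf5 was now lower as well, and Irf3 and Irf8 did not pass the test against untreated cells. Irf4 did not pass against untreated cells at either time. Of the 6 genes 4 were called at 2 h, all lower, where 38.5% of all genes tested were called, 19.2% lower and 19.3% higher. At 6 h 3 were called, all lower, where 52% of all genes were, 25.7% lower and 26.4% higher. In the same 6 h libraries 6 of 8 macrophage and 4 of 8 dendritic markers fell, and their part in the 6 h results was not tested. By edgeR 0 of the 6 were higher at either time, also 0 at an unadjusted p under 0.05, 0 by DESeq2 and 0 by limma-voom. Between the times 5 were called, with 4 higher at 6 h than at 2 h and 1 lower, where 48.7% of all genes were called, 24.3% higher and 24.4% lower. Complete separation of the groups' libraries was seen for 5 of the 6 at 2 h (48.2% of all genes), for 3 at 6 h (63%) and for 5 between the times (58.9%). The median log2 fold change of the 6 was -0.28 at 2 h and -0.14 at 6 h, beside -0.000988 and 0.0073 over all genes tested. The median absolute log2 fold change over all genes was 0.188 at 2 h and 0.255 at 6 h. Without replicate 2 at 2 h, the log2 fold changes at 2 h were -0.27 for Irf1, -0.67 for Irf2, -0.39 for Irf3, -0.37 for Irf8 and -0.16 for Irf4, which then passed too. For 6 h against 2 h they were then 0.47 for Irf3, 0.48 for Irf8, 0.18 for Irf4 and -0.29 for Irf5, all called.

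**Figure D1:**
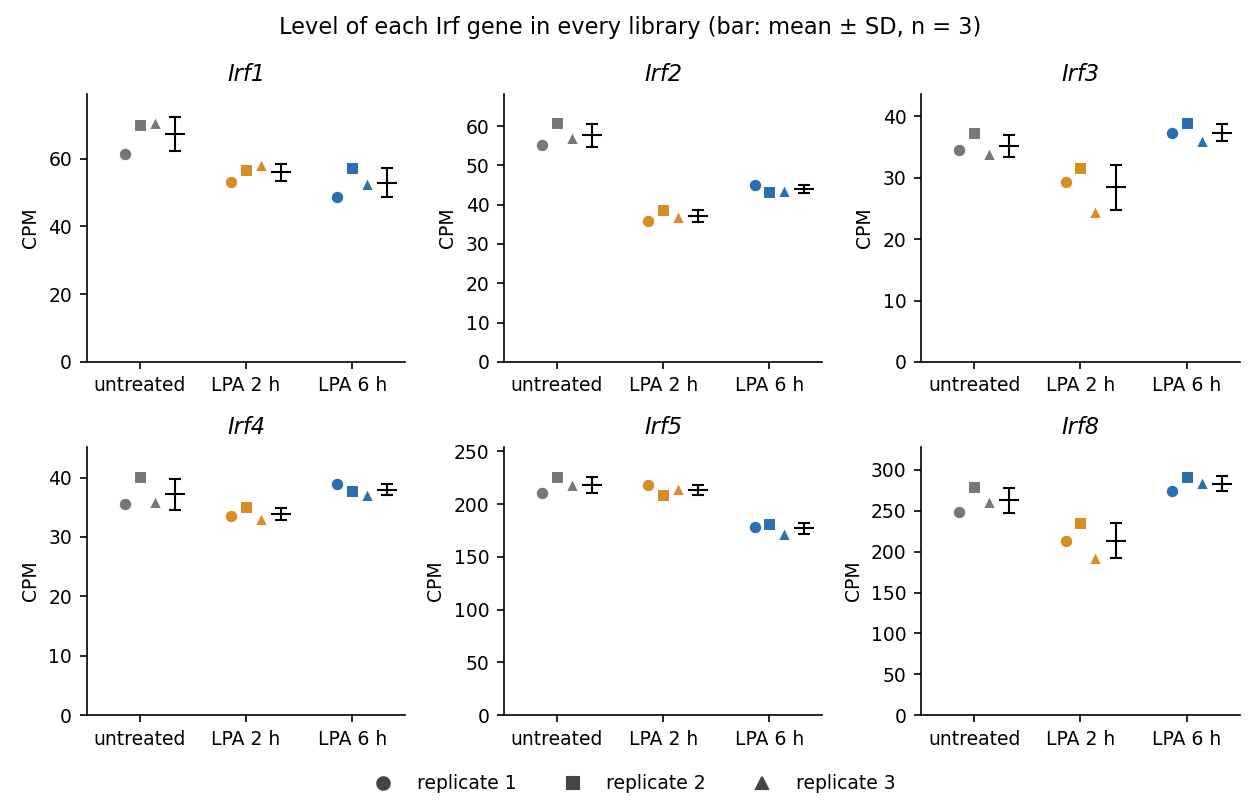
Level of each Irf gene in CPM (y axis from 0) in every library, by group (x axis), with symbols for replicate numbers and bars for mean ± SD (n = 3). Irf2 at 2 h, with 35.8 to 38.7 CPM, lies well below the untreated libraries, and Irf8 at 2 h, with 193 to 235 CPM, lies below both other groups, which overlap each other.

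Irf2 showed the largest change of the 6 at 2 h. Its levels were 55.1, 60.7 and 57.1 CPM without LPA, 35.8, 38.7 and 36.8 CPM at 2 h and 45.1, 43.2 and 43.4 CPM at 6 h. The groups did not overlap in any pairing, with 2 h lowest and 6 h between. At 2 h it averaged 37.1 ± 1.47 CPM, against 57.6 ± 2.83 CPM untreated (n = 3 each), a log2 fold change of -0.63 ± 0.05 (edgeR adjusted p = 1.47e-06), or 0.645 of the untreated level (95% interval 0.598 to 0.695). At 6 h the mean was 43.9 ± 1.01 CPM and the log2 fold change against untreated -0.39 ± 0.05 (edgeR adjusted p = 3.99e-05). It was higher at 6 h than at 2 h by 0.24 ± 0.05 on the log2 scale (edgeR adjusted p = 0.00205).

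Irf1, the activator of the pair, had untreated levels of 61.4, 69.8 and 70.4 CPM, with 53.2, 56.6 and 58.2 CPM at 2 h and 48.8, 57.3 and 52.6 CPM at 6 h. Every LPA library lay below every untreated one, while the libraries of the LPA times overlapped. At 2 h it averaged 56.0 ± 2.54 CPM, against 67.2 ± 5.04 CPM untreated, a log2 fold change of -0.26 ± 0.07 (edgeR adjusted p = 0.00867). At 6 h it averaged 52.9 ± 4.29 CPM, a log2 fold change of -0.34 ± 0.07 (edgeR adjusted p = 0.00114). Between 6 h and 2 h the log2 fold change of -0.08 ± 0.07 did not pass (edgeR adjusted p = 0.360).

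Irf3, the factor poised to induce interferon beta, was at 34.5, 37.3 and 33.9 CPM untreated, 29.4, 31.6 and 24.4 CPM at 2 h and 37.3, 38.9 and 36.0 CPM at 6 h. The 2 h libraries lay below all others, with replicate 3 lowest, and the 6 h libraries overlapped the untreated ones. At 2 h it averaged 28.5 ± 3.68 CPM, against 35.2 ± 1.77 CPM untreated, a log2 fold change of -0.30 ± 0.08 (edgeR adjusted p = 0.0112). That call was lost without untreated replicate 2 (log2 fold change -0.26, edgeR adjusted p = 0.0502). At 6 h the mean was 37.4 ± 1.46 CPM, with a log2 fold change of 0.08 ± 0.08 against untreated that did not pass (edgeR adjusted p = 0.410), and the 95% interval of the ratio ran from 0.937 to 1.2. The 6 h libraries were above the 2 h libraries by 0.39 ± 0.08 on the log2 scale (edgeR adjusted p = 0.00214).

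Irf5, the Toll-like receptor factor, was at 210.3, 226 and 218 CPM untreated, 218, 209 and 214 CPM at 2 h and 178, 181 and 171 CPM at 6 h. The untreated and 2 h libraries overlapped, and the 6 h libraries lay below all of them. At 2 h the log2 fold change of -0.03 ± 0.04 did not pass (edgeR adjusted p = 0.620), with a 95% interval of the ratio from 0.917 to 1.05. At 6 h Irf5 averaged 177 ± 5.05 CPM, against 218 ± 7.84 CPM untreated, a log2 fold change of -0.30 ± 0.04 (edgeR adjusted p = 0.000102). Against 2 h, where it averaged 214 ± 4.68 CPM, it had a log2 fold change of -0.27 ± 0.04 (edgeR adjusted p = 0.000357).

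Irf8, which directs monocytes and the Xcr1-positive dendritic cells, was at 249, 279 and 261 CPM untreated, 213, 235 and 193 CPM at 2 h and 274, 292 and 284 CPM at 6 h. All 2 h libraries lay below all others, replicate 2 being the highest of them, and 6 h and untreated libraries overlapped. At 2 h it averaged 214 ± 21 CPM, against 263 ± 14.9 CPM untreated, a log2 fold change of -0.30 ± 0.07 (edgeR adjusted p = 0.00385). At 6 h Irf8 averaged 283 ± 8.78 CPM, a log2 fold change of 0.11 ± 0.07 against untreated that did not pass (edgeR adjusted p = 0.195), with a 95% interval of the ratio from 0.974 to 1.19. The 6 h libraries were above the 2 h libraries by 0.41 ± 0.07 on the log2 scale (edgeR adjusted p = 0.000446), the largest difference between the times among the 6 genes.

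Irf4, the factor of the other dendritic cell branch, was at 35.5, 40.2 and 35.9 CPM untreated, 33.6, 35.0 and 33 CPM at 2 h and 39.0, 37.8 and 37.1 CPM at 6 h. The 2 h libraries lay just below all others. At 2 h it averaged 33.9 ± 1.04 CPM, against 37.2 ± 2.58 CPM untreated, and the log2 fold change of -0.14 ± 0.06 did not pass (edgeR adjusted p = 0.0731). It passed without replicate 2 at 2 h (-0.16, edgeR adjusted p = 0.0483). In 17 of the 19 alternatives it did not pass, and over all 19 the log2 fold change ran from -0.1675 to -0.0766. At 6 h the mean was 38.0 ± 0.943 CPM and the log2 fold change against untreated 0.03 ± 0.06 (edgeR adjusted p = 0.713, 95% interval of the ratio 0.936 to 1.11). Irf4 was higher at 6 h than at 2 h by 0.16 ± 0.06 on the log2 scale (edgeR adjusted p = 0.0295), a call lost on leaving out 2 h replicate 1 or 3 or any of the 6 h replicates (edgeR adjusted p from 0.0514 to 0.111).

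**Figure D2:**
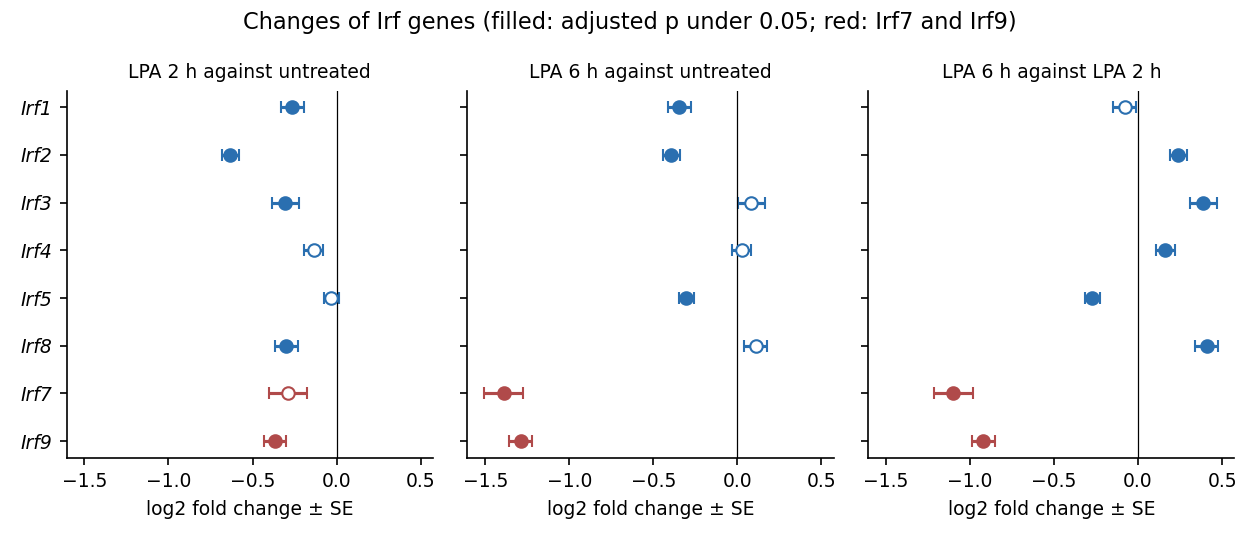
Log2 fold change ± SE (x axis) of the 6 Irf genes in blue and of Irf7 and Irf9 in red, in 3 comparisons, with filled points at an adjusted p under 0.05. At 6 h Irf7 (-1.39) and Irf9 (-1.29) lie far to the left of the 6 genes, which run from -0.39 to 0.11.

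Irf7 and Irf9, of the same family, gave a scale for these changes. Irf9, the DNA-binding part of ISGF3, was at 36.5 ± 1.36 CPM at 6 h, against 89.2 ± 2.25 CPM untreated, a log2 fold change of -1.29 ± 0.07 (edgeR adjusted p = 5.62e-08). At 2 h it was at 69.2 ± 7.15 CPM, a log2 fold change of -0.37 ± 0.07 (edgeR adjusted p = 0.000818). Irf7, the amplifier of interferon production, was at 32.3 ± 3.18 CPM at 6 h, against 84.6 ± 4.66 CPM untreated, a log2 fold change of -1.39 ± 0.12 (edgeR adjusted p = 9.01e-06). At 2 h Irf7 was at 69.2 ± 11.1 CPM and did not pass (-0.29 ± 0.11, edgeR adjusted p = 0.0681), but it passed without 2 h replicate 1 (-0.40, edgeR adjusted p = 0.0134). Between 6 h and 2 h Irf7 and Irf9 were lower, where Irf2, Irf3, Irf4 and Irf8 were higher. Differences between genes in their fold change were not tested.

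Levels between genes were compared as CPM per kilobase of annotated exon. In untreated cells Irf5 was at 75.1 ± 2.70 CPM per kilobase, Irf8 at 37.2 ± 2.12, Irf1 at 16.9 ± 1.27, Irf3 at 10.2 ± 0.516, Irf2 at 7.79 ± 0.383 and Irf4 at 7.59 ± 0.527. Each gene lay above the next in all libraries except for Irf2 and Irf4, whose libraries overlapped. At 2 h Irf4 (6.91 ± 0.211) lay above Irf2 (5.02 ± 0.199) and overlapped Irf3 (8.27 ± 1.07), and at 6 h the order from the top was Irf5, Irf8, Irf1, Irf3, Irf4 and Irf2 with no overlap of neighbours. Irf5 and Irf8 made up most of the summed level per kilobase of the 6 genes in every library, with Irf5 at 43.3% to 54.8% and Irf8 at 20.3% to 29.5%. The order rests on the length used: with the longest annotated transcript Irf8 was at 81.7 ± 2.53 and Irf5 at 78.9 ± 2.25 CPM per kilobase at 6 h, with overlapping libraries, and Irf2 lay above Irf4 in all groups.

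**Figure D3:**
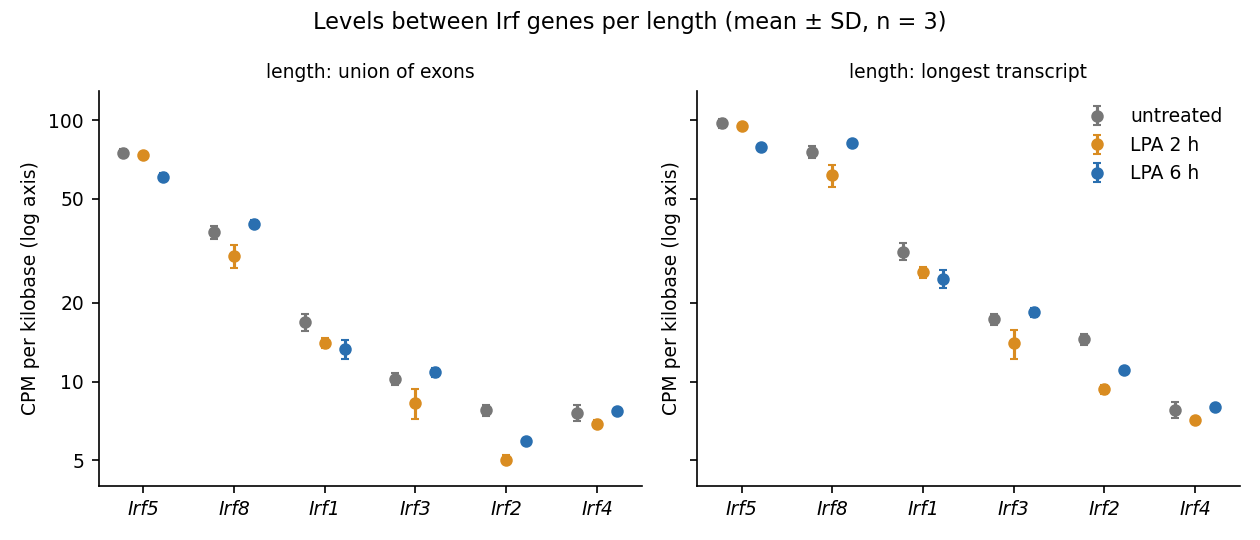
CPM per kilobase (log axis) of each Irf gene in the 3 groups, mean ± SD (n = 3), with length taken as the union of exons on the left and as the longest transcript on the right. Irf5 and Irf8 lie highest in both panels, and Irf8 meets Irf5 at 6 h only on the right.

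Ratios of counts within a library do not depend on how libraries are scaled. The Irf1 to Irf2 ratio was 1.11, 1.15 and 1.23 without LPA, 1.49, 1.46 and 1.58 after 2 h and 1.08, 1.33 and 1.21 at 6 h. It was higher in every 2 h library than in any other, and untreated and 6 h libraries overlapped. The Irf8 to Irf5 ratio was 1.18, 1.23 and 1.2 untreated, 0.978, 1.13 and 0.899 at 2 h and 1.54, 1.61 and 1.66 at 6 h, with no overlap of groups. The Irf8 to Irf4 ratio averaged 7.07 ± 0.178 untreated, 6.30 ± 0.434 at 2 h and 7.47 ± 0.373 at 6 h, and the Irf5 to Irf3 ratio 6.19 ± 0.201, 7.60 ± 1.10 and 4.73 ± 0.0679. These pairs were chosen after the levels were seen. With 3 libraries a group, a two-sided exact permutation test cannot go below p = 0.1, which 10 of the 12 comparisons reached (0.12 after Benjamini-Hochberg adjustment), the others being 6 h against untreated for Irf1 to Irf2 (exact p = 0.7) and for Irf8 to Irf4 (exact p = 0.2).

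**Figure D4:**
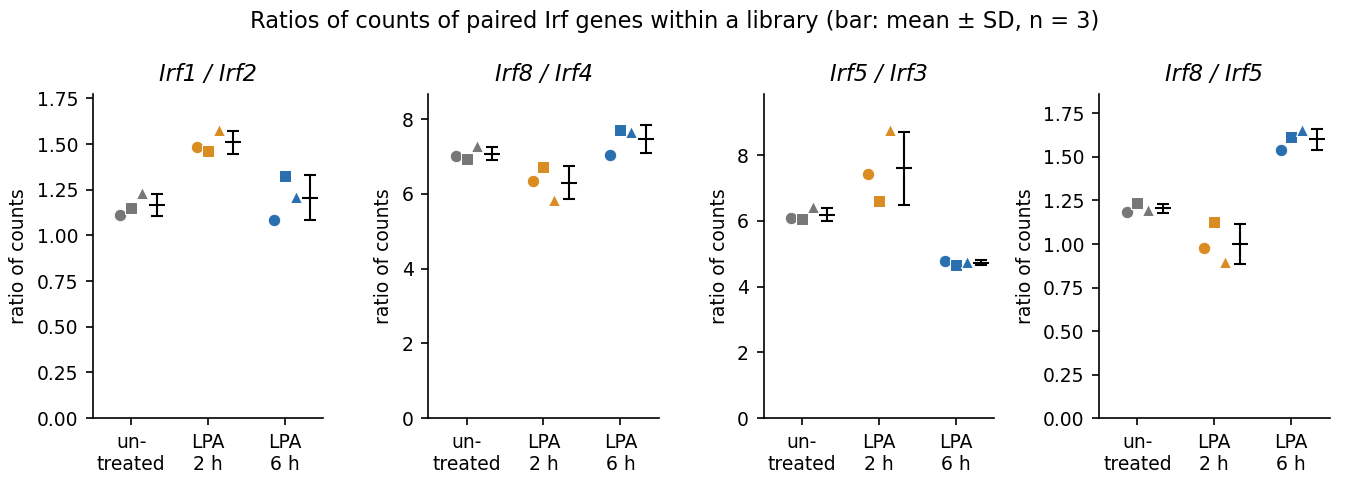
Ratio of counts of 4 pairs of Irf genes (y axis from 0) in each library, by group, with bars for mean ± SD (n = 3). The Irf1 to Irf2 ratio is highest at 2 h, between 1.46 and 1.58, and the Irf8 to Irf5 ratio is highest at 6 h, between 1.54 and 1.66.

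Upstream of Irf1, the list of interferon gamma receptor, JAK-STAT and NF-kappaB genes had 3 of 10 higher and 2 lower at 2 h, and 2 higher and 6 lower at 6 h (median log2 fold change -0.0087 and -0.19). For this and the lists below, 19.3% of all genes tested were called higher and 19.2% lower at 2 h. At 6 h the shares were 26.4% and 25.7%. The median log2 fold change over all genes was -0.000988 at 2 h and 0.0073 at 6 h. Ifngr1, the ligand-binding chain of the interferon gamma receptor, rose to 121 ± 9.70 CPM at 2 h and 94.1 ± 6.17 CPM at 6 h, against 62.4 ± 2.66 CPM untreated (log2 fold changes 0.96 ± 0.07 and 0.59 ± 0.07). Nfkb1 rose at 2 h (0.54 ± 0.07) and was lower at 6 h (-0.20 ± 0.07). The 6 h call was lost on blocking by replicate number (edgeR adjusted p = 0.0537) and on scaling by library totals only (0.0574). It was also lost on leaving out any of the 6 libraries compared except untreated replicate 1. Without untreated replicate 2 or 3 or 6 h replicate 2 the list had 3 lower at 6 h, without untreated replicate 2 or 3 or 6 h replicate 1 or 3 it had 1 higher at 6 h, and without untreated replicate 2 or 3 it had 1 lower at 2 h.

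Among 15 genes that lead to phosphorylation of Irf3 and Irf5, 3 were higher and 8 lower at 2 h, and 5 higher and 6 lower at 6 h (medians -0.23 and -0.014). Over all genes tested 38.5% were called either way at 2 h and 52% at 6 h. Ikbke, the inducible kinase of Irf3, fell to 54.9 ± 2.93 CPM at 2 h and 53.5 ± 2.65 CPM at 6 h, against 92.5 ± 2.95 CPM untreated (-0.75 ± 0.05 and -0.79 ± 0.05). Tlr9, the receptor for unmethylated DNA, fell at both times (log2 fold changes -0.71 ± 0.07 and -0.68 ± 0.07). The adaptor Traf3 rose at both times (log2 fold changes 0.70 ± 0.07 and 0.33 ± 0.07). Of 5 genes whose products modify IRF proteins, 1 rose and 1 fell at 2 h and 3 fell at 6 h (medians -0.060 and -0.19). Trim21, a ubiquitin ligase of several IRF proteins, fell at both times (-0.82 ± 0.06 and -0.75 ± 0.06). Lyn, a kinase that restrains Irf5, had a log2 fold change of 0.20 ± 0.07 at 2 h, a call lost on leaving out any of the untreated libraries, 2 h replicate 1 or 3, or 6 h replicate 3, and fell at 6 h (-0.29 ± 0.07). The Irf2 co-repressor genes Irf2bp1, Irf2bp2 and Irf2bpl had 1 of 3 higher at 6 h (median log2 fold change -0.065 at 2 h and 0.14 at 6 h). That gene was Irf2bpl, with 84.3 ± 5.19 CPM at 6 h, against 70.8 ± 5.26 CPM untreated (0.25 ± 0.08), a call lost without untreated replicate 1 or 3 or 6 h replicate 3. At 6 h Irf2bp1 (0.14 ± 0.07) and Irf2bp2 (-0.08 ± 0.07) did not pass, though Irf2bp1 did without untreated replicate 2 or on scaling by library totals only. At 2 h none of the 3 passed by edgeR, with 1 lower at an unadjusted p under 0.05, and Irf2bpl passed without 2 h replicate 2 (-0.29, edgeR adjusted p = 0.00343).

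DNA-binding partners of Irf4 and Irf8 had 2 of 10 higher and 6 lower at both times (medians -0.35 and -0.22). Over all genes tested 19.3% were higher and 19.2% lower at 2 h, and 26.4% and 25.7% at 6 h. Spi1, the Ets partner of both, fell to 249.9 ± 7.25 CPM at 2 h and 239.6 ± 7.41 CPM at 6 h, against 288 ± 14 CPM untreated (-0.21 ± 0.05 and -0.27 ± 0.05). Batf3, the partner that holds up Irf8 in Xcr1-positive dendritic cells, fell to 9.28 ± 0.200 CPM at 2 h and 8.11 ± 0.736 CPM at 6 h, against 14 ± 1.45 CPM untreated (-0.60 ± 0.09 and -0.78 ± 0.09). Ikzf1 fell to 31.4 CPM at each time, against 55.9 CPM untreated (-0.84 ± 0.05 and -0.83 ± 0.06), and Batf2, a relative of Batf3, also fell at both times (-0.88 ± 0.09 and -1.13 ± 0.10). Junb, an AP-1 partner of Batf proteins, rose to 384 ± 55.7 CPM at 2 h, against 137 ± 7.97 CPM untreated (1.48 ± 0.09), and was at 135 ± 6.21 CPM at 6 h, which did not pass. The list had 1 higher at 2 h without untreated replicate 1 or 3 or any 2 h replicate.

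**Figure D5:**
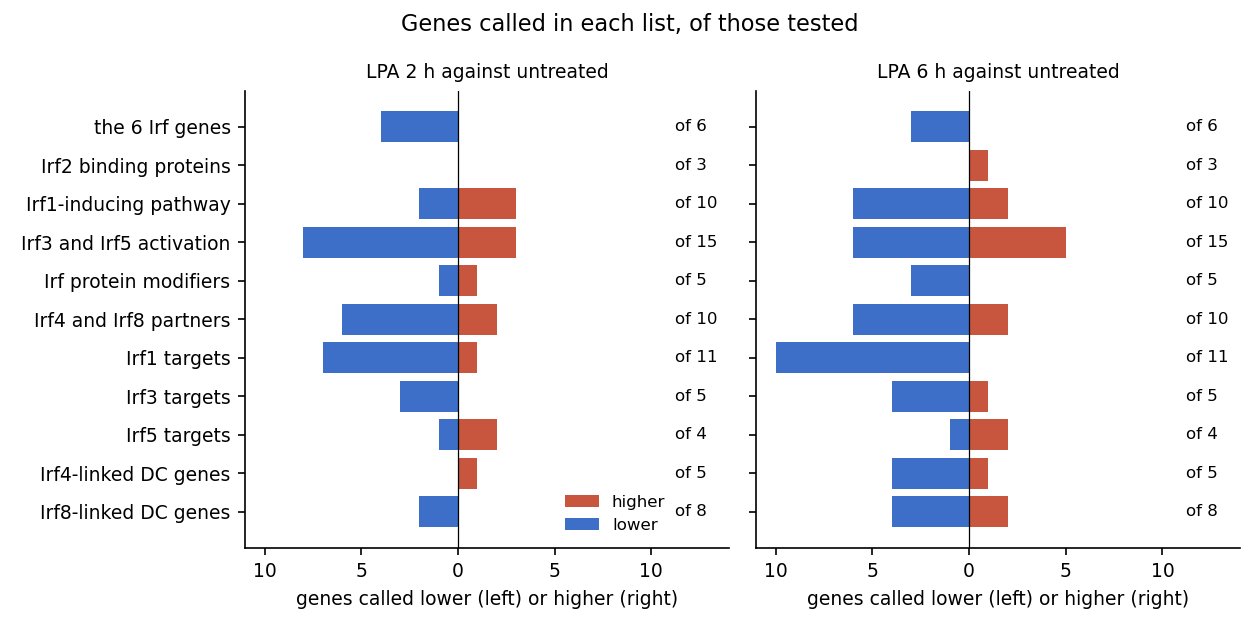
Number of genes called lower (left, blue) and higher (right, red) in each list at 2 h and 6 h against untreated, with the number tested at the right edge. Of the 11 Irf1 targets 7 were lower at 2 h and 10 at 6 h, where 19.2% and 25.7% of all genes tested were lower.

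Known targets moved in several directions, and many of them also answer to ISGF3 or other factors. Of 11 Irf1 targets 7 fell and 1 rose at 2 h and 10 fell at 6 h (medians -0.32 and -0.67). Over all genes tested 19.2% were lower and 19.3% higher at 2 h, and 25.7% and 26.4% at 6 h. Ciita, which switches on MHC class II genes, fell to 22.1 ± 1.66 CPM at 2 h and 18.4 ± 1.12 CPM at 6 h, against 80.6 ± 3.04 CPM untreated (-1.87 ± 0.06 and -2.13 ± 0.07). The inflammasome protease gene Casp1 fell at both times (-0.31 ± 0.06 and -0.97 ± 0.06), while the cell cycle inhibitor Cdkn1a rose at 2 h (0.83 ± 0.08) and fell at 6 h (-0.43 ± 0.08). Without untreated replicate 1 the list had 2 higher at 2 h. Of the 6 Irf3 targets Ifnb1 was under the filter, and of the other 5, 3 fell at 2 h and 4 at 6 h, when 1, Ccl5, rose (named after its values were seen; medians -0.67 and -3.88). The antiviral gene Isg15 fell to 29.3 ± 4.82 CPM at 2 h and 6.25 ± 0.539 CPM at 6 h, against 46.4 ± 3.18 CPM untreated, and Ifit1 to 15.2 ± 3.52 and 3.01 ± 0.388 CPM, against 45.1 ± 2.03 CPM untreated. Of the 6 Irf5 targets 4 were tested, with 2 higher and 1 lower at each time (medians 0.84 and 0.60). Il1b rose to 55.0 ± 18.4 CPM at 2 h and 17.2 ± 2.23 CPM at 6 h, against 5.95 ± 0.793 CPM untreated, while Tnf fell to 3.22 ± 1.22 and 5.76 ± 0.459 CPM, against 20 ± 1.52 CPM untreated. Without untreated replicate 1 or 6 h replicate 2 or 3, 1 of the 4 was higher at 6 h.

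Genes of the dendritic cell programs linked to Irf4 had 1 of 5 tested higher at 2 h, and 1 higher and 4 lower at 6 h (medians -0.040 and -0.27). Over all genes tested 38.5% were called either way at 2 h and 52% at 6 h. Ccr7, the receptor for migration to lymph nodes, rose at both times (log2 fold changes 0.41 ± 0.07 and 0.42 ± 0.07). The chemokine genes Ccl17 and Ccl22 fell at 6 h (-0.75 ± 0.07 and -0.67 ± 0.06). Of 8 genes linked to Irf8, 2 fell at 2 h, and 2 rose and 4 fell at 6 h (medians -0.021 and -0.58). Clec9a, a receptor for dead cells, rose to 53.7 ± 2.40 CPM at 6 h, against 38.9 ± 1.83 CPM untreated (0.46 ± 0.06). Tlr3, the receptor for double-stranded RNA, fell at 2 h (-0.39 ± 0.12), a call lost without untreated replicate 1 or 3, and at 6 h (-0.84 ± 0.12).

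The genes most like each member in their pattern were found by Pearson's r of log2 CPM over the 9 libraries, among 9262 genes. As the libraries form 3 groups, r follows the group means and is a description. Irf1 was nearest to Scube3 (r = 0.986) and Mapk14 (0.983), Irf2 to Nop2 (0.99) and Nfam1 (0.989), and Irf3 to Ciz1 (0.987) and Tmem94 (0.986). Irf4 was nearest to Rfng (0.955) and Igf2r (0.944), Irf5 to Acot7 (0.996) and Ccl22 (0.994), and Irf8 to Atg4d (0.99) and Plekhm2 (0.99).

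The 6 genes lie on several chromosomes of GRCm38, all on the plus strand. Irf1 spans 53770014 to 53778374 on chromosome 11, Irf2 46739732 to 46847458 and Irf8 120736358 to 120756694 on chromosome 8, and Irf3 44997648 to 45002848 on chromosome 7. Irf4 spans 30749226 to 30766976 on chromosome 13 and Irf5 29526625 to 29541871 on chromosome 6. The libraries were not stranded, so reads from exons shared with genes on the other strand cannot be told apart. These shared exons cover 411 bases of Irf5 with Tnpo3, 135 bases of Irf1 with Gm17334 and 88 bases of Irf3 with Bcl2l12, and no exon bases of Irf2, Irf4 or Irf8.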

How the data were processed

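Per the labels' protocols, mRNA libraries were made from total RNA with a non-stranded TruSeq protocol. The values the authors deposited are estimated counts for 9 libraries in a single table, whole numbers that follow library depth. RSEM 1.2.3, DESeq2 and mm10 are named in the submitters' processing notes. Aligner and annotation: not given in the sources used here. RSEM divides reads shared by similar transcripts, so such counts depend on that division.

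Transcript identifiers were matched to GENCODE M21 genes of GRCm38, the assembly that mm10 names. Of 38887 rows 37776 matched 1 gene, 176 several and 935 none (0.141% of counts). Rows were filtered with filterByExpr (minimum count 10, total 15), scaled by TMM and fitted over all 9 libraries with edgeR 4.0.16 (R 4.3.3, quasi-likelihood, robust, group means, no covariate), with SE as the size of the log2 fold change over the square root of F and 95% intervals from the fit's degrees of freedom. Chi-square per degree of freedom between replicates was 7.44 to 33.4, far over sampling noise, so each library counts as 1. Deviations of same-numbered libraries correlated at 0.14 to 0.18 for 6 h against untreated, and for the other comparisons the lowest was 0.09 and 0.035. These values do not settle whether a number pairs libraries, and the labels do not say so. The tests given are therefore unpaired, and the replicate number entered only as a block in an alternative. Library precision is set by the spread between replicates, with 1123 to 19876 counts per library for the 6 genes.

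The members and gene lists were chosen with earlier results of these data known. Always named were the 6 members, Irf7, Irf9, Spi1, Batf3 and Ciita; from each pathway list the 2 tested genes with the smallest p against untreated at each time; and the 2 genes most like each member with a mean of at least 5 CPM. Marker lists are given as counts and sums, and single markers were named after their values were seen. Alternatives were other scalings, filters and tools (DESeq2 1.42.0, limma-voom 3.58.1), the replicate block, only the compared libraries, summed rows, leaving out each library and another gene length. Protein sequences were not analysed here, and some genes that the rule names are not reported here.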

Additional observations from a re-analysis of the deposited data

Results flagged for a closer look

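The difference between the effects at 6 h and at 2 h was tested by 6 h against 2 h in the fit over all 9 libraries, whose estimate of spread includes the untreated ones, and values are log2 differences called by edgeR with an adjusted p under 0.05. Among the 6 genes it was positive for Irf8 (0.41), Irf3 (0.39), Irf2 (0.24) and Irf4 (0.16) and negative for Irf5 (-0.27), while Irf1 was not called. In the same family it was -1.10 for Irf7 and -0.92 for Irf9. Among genes named from the lists it was positive for Tnf (0.78), Irf2bpl (0.44), Clec9a (0.39) and Irf2bp1 (0.20). It was negative for Ifit1 (-2.31), Isg15 (-2.21), Il1b (-1.68), Junb (-1.51) and Cdkn1a (-1.26). It was also negative for Nfkb1 (-0.74), Ccl17 (-0.71), Casp1 (-0.66), Ccl22 (-0.61), Lyn (-0.48), Tlr3 (-0.45), Traf3 (-0.37), Ifngr1 (-0.37), Ciita (-0.26) and Irf2bp2 (-0.18). The call for Tnf was lost with no filter on low counts (edgeR adjusted p = 0.0566) and without 2 h replicate 1 (0.0565). Those for Irf2bp1 and Irf2bp2 were lost on leaving out several libraries, among them 2 h replicate 3 for each, and for Irf2bp2 also untreated replicate 2 (edgeR adjusted p = 0.0543) or 3 (0.0593). Scaling by library totals only (edgeR adjusted p = 0.128) or fitting only the 6 libraries compared (0.0721) also ended the Irf2bp2 call.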

How the results depend on the processing

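Over 19 alternatives for each of the 3 comparisons, the direction of every called change of the 6 genes stayed the same, and the number called was 3 to 5 at 2 h, 3 at 6 h and 4 to 5 between the times. Genes called in all ranged from 4352 to 6135 at 2 h, from 6226 to 8044 at 6 h and from 5767 to 7588 between the times. For Irf3 at 2 h, log2 fold changes on leaving out a library ran from -0.39 to -0.21, for Irf4 at 2 h from -0.1675 to -0.0766, and for Irf4 between the times from 0.14 to 0.18. With the replicate number as a block, Irf4 at 2 h passed at -0.14 (edgeR adjusted p = 0.0423), and the block changed no other call of the 6 genes. Among the other genes named, the block ended the call of Nfkb1 at 6 h, and it added Irf7 (-0.30) and Irf2bpl (-0.19) at 2 h. It also added Batf3 for 6 h against 2 h (-0.20, edgeR adjusted p = 0.0402). Irf7 at 2 h also passed with library totals (-0.31), DESeq2 (-0.29) and limma-voom (-0.31). The causes were not tested. Levels per kilobase moved with the length used for each gene. Depth gave 1123 to 19876 counts a library for the 6 genes, so the spread between replicates sets the precision.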
